A study of Mus musculus with 14 samples.

Results

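Natural killer (NK) cells and cytotoxic T cells kill infected or transformed cells by releasing granules that hold perforin, which opens the membrane of the target, and granzymes, serine proteases that start its death. The decision to kill is taken by receptors at the surface of the cell. In the mouse most of these are C-type lectin-like proteins of the Klr families, which are encoded side by side in the NK gene complex on chromosome 6 and either inhibit or activate the cell, the latter through adaptors such as DAP12 (*Tyrobp*). The spleen is a major site of both cell types.

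The 33 natural killer and cytotoxic genes described here are 5 granule proteins (*Gzma*, *Gzmb*, *Gzmk*, *Gzmm* and *Prf1*), 3 further proteins of the cytotoxic granule (*Nkg7*, *Ctsw* and *Cst7*), 17 Klr receptors, and 8 other receptors, ligands, signalling proteins and regulators (*Ncr1*, *Cd160*, *Tyrobp*, *Il2rb*, *Il18rap*, *Eomes*, *Fasl* and *Ifng*). They were listed by gene name and known role, with earlier results of these data known, and all 33 were found among the 49315 genes of the spleen count table. The filter on low counts was passed by 27 of them, among 16911 genes tested, and the other 6 (*Gzmk*, *Klrb1a*, *Klra3*, *Klra4*, *Klra8* and *Klra9*) are described by their counts.

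ZFP36L2 is an RNA-binding protein that attaches to AU-rich elements in 3′UTRs and speeds the decay of the mRNA. Poly(A) RNA of 14 libraries was sequenced, each from 1 animal: 4 spleens per genotype, wild type and L2-fKO, and 3 ovaries per genotype. L2-fKO animals (named L2-cKO in the labels) are Zfp36l2-/-;CMV-Cre, in which loxP sites around an exon were recombined. The wild-type littermates hold both intact *Zfp36l2* copies and also carry the CMV-Cre transgene. This transgene recombines broadly from the embryo on, the germ line included, so the deletion was not limited to lymphoid cells, and the L2-fKO mice died as pups with anemia and pancytopenia. The study describes its spleen profiling as done in pups in the first days after birth, with the spleens coming from pairs matched for age. Neither the ages nor which animals form a pair were in the labels, and the part of age in the members' results was not tested. Of the spleens, 2 wild-type and 1 L2-fKO were from females, and L2-fKO spleen 3 and L2-fKO ovary 1 came from the same animal. The labels name the spleen source as spleen organoid, which was taken here to mean the spleen. *Tlx1*, a factor of spleen stroma, was at 1704 to 2112 in the wild-type libraries of this source, and *Foxl2*, of ovarian granulosa cells, was at 0 to 0.943 in them and at 6070 to 6795 in the wild-type ovaries.

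Libraries held 41944898 to 44800262 counts on genes in wild-type spleens and 39138010 to 45167464 in L2-fKO spleens. The values below are counts normalized by edgeR's TMM method, fold changes are log2 differences of L2-fKO from wild type, and a gene was called at an adjusted p below 0.05 in edgeR's quasi-likelihood test together with an absolute log2 fold change above 1. *Zfp36l2* itself was at 7394, 4773, 6429 and 4362 in the wild-type spleens and at 278, 326, 349 and 405 in the L2-fKO spleens, so that it fell in every one of them (log2 fold change -4.08).

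L2-fKO spleen 4 stood apart from the other L2-fKO spleens. It was far from the other 3 in 6.91% of the genes tested by Dixon's ratio, against 0.29% to 1.124% for these and up to 3.60% for a wild-type spleen, and it was the highest L2-fKO library for 29 of the 33 members. The summed normalized count of the members was 9382, 8339, 7018 and 7225 in wild-type spleens 1 to 4, 5142, 4975 and 4440 in L2-fKO spleens 1 to 3, and 10097 in L2-fKO spleen 4. Among wild-type spleens, number 1 was the highest for 24 members. The tested members are therefore also described without L2-fKO spleen 4, a setting singled out after these values were seen. That library was the highest of its group for most members. Leaving it out lowers their L2-fKO mean by construction, so the lower fold changes are not separate support.

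With all 8 spleens, 5 of the 27 tested members were called lower in L2-fKO (*Klrb1b*, *Klrb1c*, *Klri2*, *Klra1* and *Cst7*) and 1 was called higher (*Gzmb*). Of all genes tested, 3.11% were called lower and 2.90% higher. The median log2 fold change was -0.55 over the tested members and -0.02 over all genes tested, and 21 of the 27 members lay below 0. Without L2-fKO spleen 4, 14 members were called lower and *Gzmb* was again called higher, against 3.94% of all genes lower and 2.74% higher, and the median of the members was -1.124 against -0.04 for all genes. When wild-type spleen 1 was left out as well, a choice made after seeing the data, 14 members were again called lower and 1 higher.

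**Figure D1:**
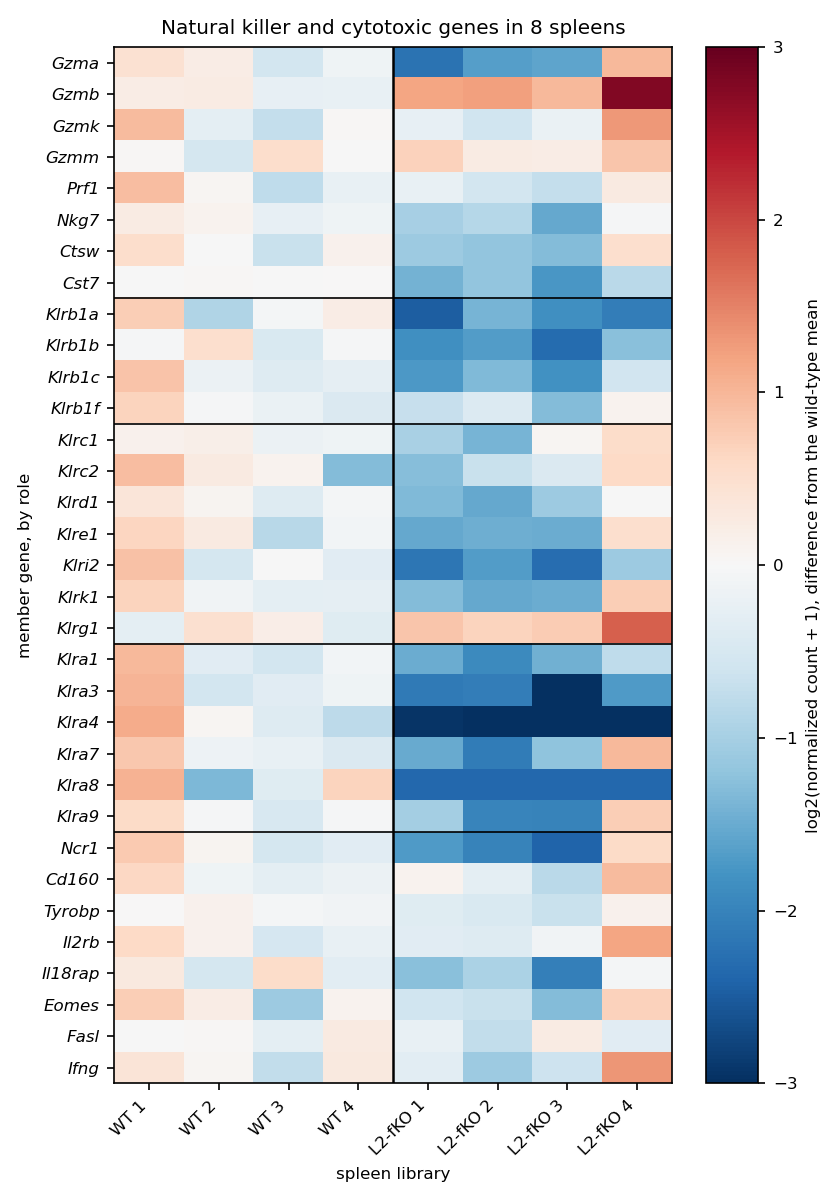
Each row is a member and each column a spleen library; the colour gives log2(normalized count + 1) as a difference from the mean of the 4 wild-type spleens, with the scale ending at 3 in each direction, and horizontal lines part the granule genes, the Klr families and the others. L2-fKO spleens 1 to 3 are blue for most rows, L2-fKO spleen 4 is red for many of the same rows, and *Gzmb* and *Klrg1* are red in all 4 L2-fKO libraries.

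Levels were compared between genes only per kilobase of exon. In wild-type spleens *Tyrobp*, which is also made by myeloid cells, was at 5724 normalized counts per kilobase, *Nkg7* at 637, *Cst7* at 364, *Gzma* at 361, *Klrd1* at 211, *Il2rb* at 173 and *Ctsw* at 125. *Cst7* and *Gzma* did not differ beyond their spread. The other 26 members were below 100 per kilobase, the lowest being *Klra8* at 4.35, *Klrc2* at 3.28 and *Gzmk* at 3.16.

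Among the granule genes the direction differed between members. *Gzmb* encodes granzyme B, a protease that cuts after aspartate and activates caspases in the target. It was at 66.0, 66.7, 47.7 and 48.5 in the wild-type spleens and at 130, 133, 112 and 390 in the L2-fKO spleens. The lowest L2-fKO spleen was above the highest wild-type spleen, with a log2 fold change of 1.74 (SE 0.41, adjusted p = 0.0216, edgeR), and L2-fKO spleen 4 was far above the rest. With that library left out it was 1.13 (SE 0.21, adjusted p = 0.00733, edgeR). The call was lost when wild-type spleen 2 or 4 was left out (adjusted p = 0.0552 and 0.0721, edgeR). It was also lost in males only and with sex as a covariate. Of 8 markers of mast cells and basophils 4 were called higher (*Cpa3*, *Fcer1a*, *Tpsb2* and *Cma1*) and 1 lower (*Kit*). The log2 fold change was below 0 for 3 of the 8, *Kit* included. *Tpsb2*, a mast cell tryptase, was at 67.9 to 434 in wild-type spleens and at 1987, 2160, 770 and 3919 in L2-fKO spleens 1 to 4. L2-fKO spleen 4 was the highest L2-fKO library for both genes, as it was for 29 of the 33 members, and L2-fKO spleen 3 was the lowest for both. The summed level of the 8 markers was 4507 to 4937 in wild-type spleens and 2476 to 10380 in L2-fKO spleens, and none was at 0 in any library. The part of mast cells in the *Gzmb* result was not tested.

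*Gzma* encodes granzyme A, a tryptase-like protease and the granzyme with the highest mean level per kilobase in wild-type spleens. It was at 482, 410, 238 and 322 in wild-type spleens, at 75.2, 111 and 116 in L2-fKO spleens 1 to 3, and at 686 in L2-fKO spleen 4. The first 3 L2-fKO libraries were below every wild-type library and the remaining one above them all. With all 8 the log2 fold change was -0.55 (SE 0.63, adjusted p = 0.608, edgeR), and -1.85 (SE 0.28, adjusted p = 0.00301, edgeR) once L2-fKO spleen 4 was left out. The result for *Gzma* thus rests on whether that library is counted.

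*Cst7* encodes cystatin F, an inhibitor of the cathepsins that activate granzymes. It was at 354, 365, 356 and 361 in wild-type spleens and at 133, 156, 105 and 204 in L2-fKO spleens. The wild-type values lay closer together than those of any other called member, and all L2-fKO libraries were lower. The log2 fold change was -1.26 (SE 0.20, adjusted p = 0.00364, edgeR), and *Cst7* was called lower under all 16 alternatives run. Its product is also made by myeloid cells, and all 8 neutrophil markers were called lower as well. The part of neutrophils in the *Cst7* result was not tested.

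*Nkg7*, which takes part in granule release, was at 689, 624, 486 and 531 in wild-type spleens and at 287, 317, 198 and 562 in L2-fKO spleens. *Ctsw*, a cathepsin of NK and cytotoxic T cells, was at 143 to 324 in wild-type spleens, at 91.2 to 105 in L2-fKO spleens 1 to 3 and at 323 in L2-fKO spleen 4. Neither was called with all libraries (log2 fold changes of -0.77 and -0.60, adjusted p = 0.104 and 0.386, edgeR). Both were called lower without L2-fKO spleen 4 (log2 fold changes of -1.124 and -1.26, adjusted p = 0.00627 and 0.0138, edgeR).

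*Prf1*, the gene of perforin, was at 148, 79.8, 44.7 and 65.7 in wild-type spleens and at 65.8, 52.1, 46.7 and 92.9 in L2-fKO spleens. The groups overlapped, and no call was made with all libraries (log2 fold change of -0.39, SE 0.37, adjusted p = 0.528, edgeR) or without L2-fKO spleen 4 (log2 fold change of -0.62, adjusted p = 0.290, edgeR). *Gzmm*, granzyme M, had a log2 fold change of 0.50 (SE 0.28, adjusted p = 0.279, edgeR), with overlapping groups, and of 0.37 without L2-fKO spleen 4. *Gzmk*, granzyme K, had at most 13 counts in a library. Perforin and the granzymes thus had no common direction in these libraries: *Gzmb* rose and the values of the other tested ones did not pass the test with all libraries.

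**Figure D2:**
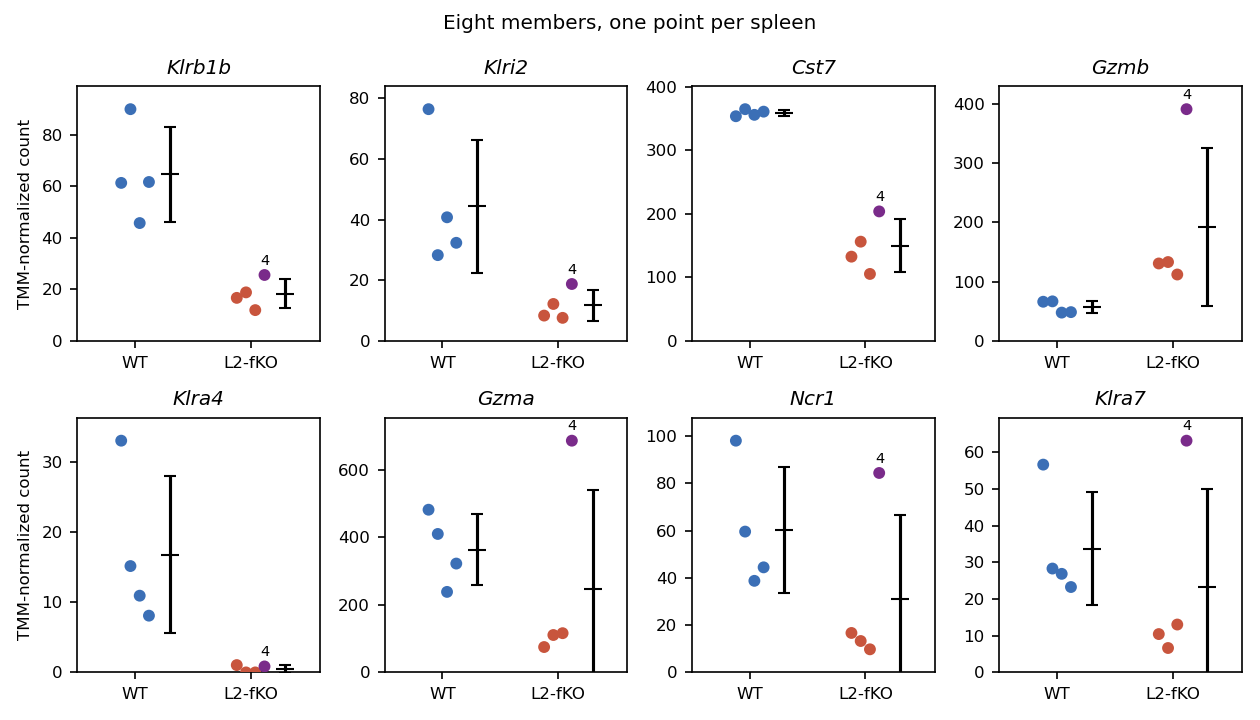
Each point is the TMM-normalized count of 1 spleen for 8 members, wild type on the left and L2-fKO on the right of each panel, with L2-fKO spleen 4 in purple and marked 4; bars give the mean and SD of the group and are cut at 0. In the upper row and for *Klra4* the groups do not overlap, and for *Gzma*, *Ncr1* and *Klra7* L2-fKO spleens 1 to 3 lie below every wild-type spleen while L2-fKO spleen 4 lies within or above them.

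The Klrb1 genes encode the NKR-P1 receptors, which recognise Clec2 proteins on other cells. *Klrb1b*, an inhibitory receptor, was at 61.3, 89.9, 45.7 and 61.6 in wild-type spleens and at 16.7, 18.8, 11.9 and 25.6 in L2-fKO spleens. All L2-fKO libraries were lower, number 4 included (log2 fold change of -1.80, SE 0.30, adjusted p = 0.00487, edgeR), and *Klrb1b* was called lower under all 16 alternatives. *Klrb1c* encodes the activating receptor known as NK1.1, the usual surface marker of mouse NK cells in C57BL/6 animals. It was at 198, 96.0, 82.5 and 90.0 in wild-type spleens and at 32.4, 43.2, 30.4 and 73.3 in L2-fKO spleens, which did not overlap. Its log2 fold change was -1.37 (SE 0.38, adjusted p = 0.0403, edgeR), with a range of -1.72 to -0.99 as single libraries were left out. The call was lost when any of wild-type spleens 1, 2 and 4 or L2-fKO spleens 1 to 3 was left out, with a highest adjusted p of 0.116 (edgeR).

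*Klrb1a* had 19, 5, 10 and 12 raw counts in wild-type spleens and 1, 3, 2 and 2 in L2-fKO spleens, too few for the test. The summed rate in L2-fKO was 17.8% of wild type, with an exact 95% counting interval of 7.26% to 38.1%, which covers counting error only. *Klrb1f* was at 30.3 to 66.0 in wild-type spleens and at 16.3 to 44.3 in L2-fKO spleens and was not called (log2 fold change of -0.55, adjusted p = 0.334, edgeR), nor without L2-fKO spleen 4 (-0.84, adjusted p = 0.132). So 3 of the 4 Klrb1 members, the untested *Klrb1a* among them, were lower in every L2-fKO library, and *Klrb1f* overlapped. Of all genes tested 10.8% were likewise lower in every L2-fKO library. Of the distinct 50-base stretches of the *Klrb1b* transcripts 29.0% also occur in another gene, and 18.1% of those of *Klrb1c*, so a read that lies wholly within such a stretch matches more than 1 gene. How far this touches the counts of uniquely mapped reads was not tested.

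*Klrd1* (CD94) pairs with the NKG2 proteins of *Klrc1* and *Klrc2* to read the non-classical MHC molecule Qa-1. *Klrd1* was at 340, 280, 205 and 258 in wild-type spleens and at 106, 91.9, 125 and 265 in L2-fKO spleens. With all libraries the log2 fold change was -0.87 (SE 0.33, adjusted p = 0.111, edgeR) and -1.33 (SE 0.21, adjusted p = 0.00421) with L2-fKO spleen 4 left out. Its partners were not called under either setting. *Klrc1*, the inhibitory NKG2A, was at 94.4 to 121 in wild-type spleens and at 54.3, 39.9, 111 and 157 in L2-fKO spleens. *Klrc2*, the activating NKG2C, was at 6.06 to 32.1 and at 6.26 to 25.6. The log2 fold changes were -0.24 and -0.48 with all libraries and -0.65 and -1.02 without L2-fKO spleen 4 (adjusted p = 0.201 and 0.209, edgeR). For *Klrc1* 40.3% of its distinct 50-base stretches occur in another gene, mainly *Klrc2* and *Klrc3*.

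*Klrk1* encodes NKG2D, the activating receptor for stress-induced ligands. It was at 282, 163, 143 and 146 in wild-type spleens, at 71.0, 59.8 and 61.9 in L2-fKO spleens 1 to 3 and at 294 in L2-fKO spleen 4. The first 3 were clearly under the wild-type range and the last was above it. The log2 fold change was -0.58 (adjusted p = 0.4997, edgeR) with all libraries and -1.51 (SE 0.28, adjusted p = 0.00781) without L2-fKO spleen 4. *Klre1*, a receptor that dimerises with the Klri proteins, showed the same order, at 15.9 to 46.2 in wild-type spleens, 9.39 to 9.97 in L2-fKO spleens 1 to 3 and 41.8 in L2-fKO spleen 4. That library decided the call, since the log2 fold change was -0.78 (SE 0.54, adjusted p = 0.374, edgeR) with all libraries and -1.67 (SE 0.40, adjusted p = 0.0227, edgeR) without it.

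*Klri2*, the partner of *Klre1* that activates the cell, was at 76.4, 28.3, 40.8 and 32.3 in wild-type spleens and at 8.35, 12.2, 7.60 and 18.8 in L2-fKO spleens. All L2-fKO libraries were lower (log2 fold change of -1.89, SE 0.41, adjusted p = 0.0163, edgeR). Left-out libraries gave -2.23 to -1.50, and the call was lost without L2-fKO spleen 1 (adjusted p = 0.0570, edgeR). In L2-fKO spleen 4 *Klri2* was at 42.2% of the wild-type mean while its partner *Klre1* was at 134%.

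*Klrg1* marks mature NK cells and short-lived effector T cells, and binds cadherins. It was at 16.0, 28.3, 22.9 and 15.2 in wild-type spleens and at 36.5, 32.1, 34.8 and 71.6 in L2-fKO spleens. The groups did not overlap, L2-fKO being higher, yet the log2 fold change of 1.09 (SE 0.34) had an adjusted p of 0.0633 in edgeR and was not called. DESeq2 on the same counts called it. Leaving out L2-fKO spleen 4 gave 0.74 (SE 0.29, adjusted p = 0.104, edgeR). Over all genes tested, 9.61% were likewise higher in all 4 L2-fKO libraries with no overlap, and of the 27 tested members 2 were, *Gzmb* and *Klrg1*.

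The Klra genes encode the Ly49 receptors, which in mice read classical MHC class I. *Klra1* (Ly49A, inhibitory) was at 38.7, 15.2, 12.9 and 18.2 in wild-type spleens and at 6.26, 4.43, 6.52 and 11.1 in L2-fKO spleens, with no overlap. Its log2 fold change was -1.55 (SE 0.44, adjusted p = 0.0471, edgeR), with -1.87 to -1.08 as single libraries were left out. The call was kept when wild-type spleen 3 or L2-fKO spleen 4 was the one left out and was lost for each of the other 6, at adjusted p of up to 0.122 in edgeR.

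*Klra4* (Ly49D, activating) had 35, 15, 11 and 8 raw counts in wild-type spleens and 1, 0, 0 and 1 in L2-fKO spleens. The summed rate in L2-fKO was 2.97% of wild type, with an exact 95% counting interval of 0.352% to 11.1%. *Klra8* (Ly49H, the activating receptor for a cytomegalovirus protein) had 10, 1, 3 and 7 raw counts in wild-type spleens and 0 in all 4 L2-fKO spleens. With the L2-fKO group set at a floor of 3 counts it was 6.84-fold lower. This ratio takes the wild-type counts as exact and is not a lower limit. *Klra3* (Ly49C, inhibitory) had 18, 5, 6 and 7 raw counts against 1, 1, 0 and 2, a rate of 11.4% of wild type (interval 2.94% to 31.7%). These 3 genes were near or at 0 in every L2-fKO library, number 4 included. Fits without the filter on low counts called all 3 and *Klrb1a* lower, with adjusted p of 0.000262 to 0.0162 (edgeR).

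*Klra7* (Ly49G, inhibitory) and *Klra9* (Ly49I, inhibitory) had another order. *Klra7* was at 56.6, 28.3, 26.8 and 23.2 in wild-type spleens, at 10.4, 6.65 and 13.04 in L2-fKO spleens 1 to 3 and at 63.1 in L2-fKO spleen 4, the highest of all 8. It was not called with all libraries (log2 fold change of -0.50, SE 0.64, adjusted p = 0.648, edgeR) and was called lower without L2-fKO spleen 4 (-1.74, SE 0.42, adjusted p = 0.0234, edgeR). *Klra9* had 12, 7, 5 and 7 raw counts in wild-type spleens and 3, 1, 1 and 15 in L2-fKO spleens. In L2-fKO spleen 4 *Klra7* was at 187% and *Klra9* at 168% of the wild-type mean, where *Klra4* was at 5.08% and *Klra3* at 19.5%. The Ly49 genes thus did not move together in that animal. These genes share sequence, and how far this touches their counts was not tested: 33.1% of the distinct 50-base stretches of *Klra8*, 32.4% of *Klra9*, 21.5% of *Klra3* and 14.7% of *Klra7* also occur in another gene, against 4.68% of *Klra4* and 3.15% of *Klra1*.

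Of the 33 members, 9 were lower in every L2-fKO library than in every wild-type library, among them 4 that were not tested. Among the tested members the count was 5 of 27, against 10.8% of all genes tested. In L2-fKO spleens 1 to 3 alone, a set of libraries taken after the values were seen, 20 of the 33 members lay below every wild-type library, 15 of them tested, against 16.8% of all genes tested. The smallest exact permutation p that 4 against 4 animals allow is 0.0286, and the groups that did not overlap have this value.

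Position was not used to choose the members. The NK gene complex was taken as the stretch from *Klrb1a* to *Klra1* on chromosome 6 (GRCm38, chr6:128609227-130386874), which holds 91 genes of the count table and 16 of the members. In it 8 of 16 members were lower in every L2-fKO library, and outside it 1 of 17 was (*Cst7*). Of all genes tested 10.8% were, a share that does not cover *Klrb1a*, *Klra3*, *Klra4* and *Klra8*, which were under the filter. L2-fKO spleen 4 was above the wild-type mean for 13 of the 17 members outside the complex and for 7 of the 16 inside it. The share of all genes above that mean in this library was not taken. Within the complex the members that were low in L2-fKO spleen 4 were not a single block of neighbours: *Klrb1a*, *Klrb1c* and *Klrb1b* lie at one end, *Klri2* and then *Klra4* and *Klra8* in the middle, and *Klra3* and *Klra1* at the other end, with *Klra9* and *Klra7* between them. Of the 24 other genes tested in the complex, 3 were called lower and none higher with all libraries, all 3 of them genes of other cell types: *Clec12a* and *Olr1*, known from myeloid cells, and *Clec1b*, the platelet receptor CLEC-2. These 24 genes were looked at after the members' values had been seen.

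**Figure D3:**
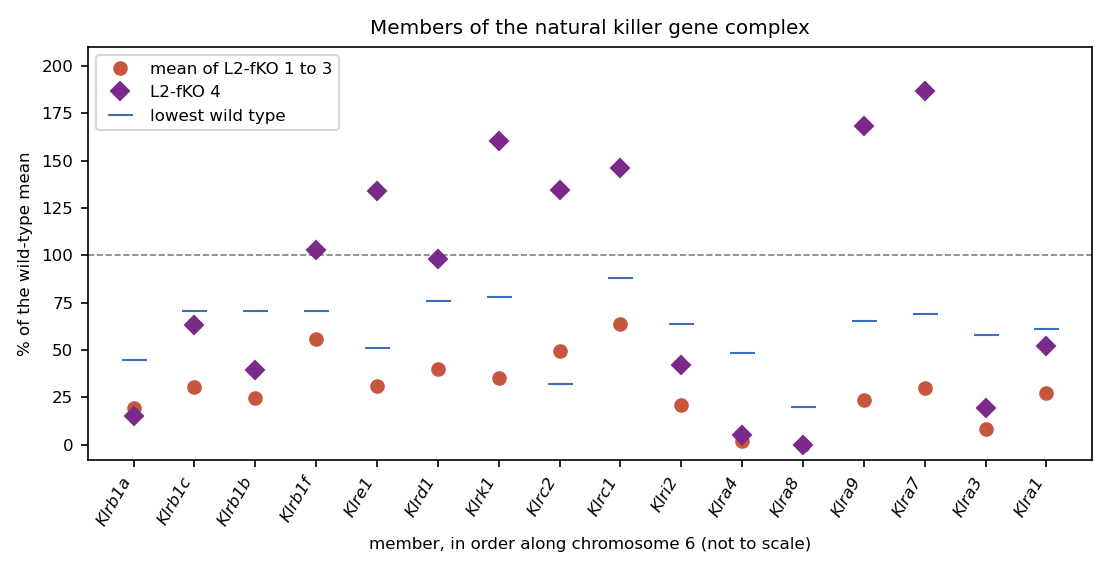
The level of each member of the NK gene complex is plotted as a percentage of its wild-type mean, in the order of the genes along chromosome 6, for the mean of L2-fKO spleens 1 to 3 (circles) and for L2-fKO spleen 4 (diamonds), with the lowest wild-type spleen as a bar. The circles lie below the bar for all but *Klrc2*, while the diamonds lie below it for 8 members and at 98.0% to 187% for the other 8.

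Outside the complex, *Ncr1* encodes NKp46, an activating receptor that marks NK cells and some innate lymphoid cells. It was at 98.1, 59.6, 38.8 and 44.5 in wild-type spleens, at 16.7, 13.3 and 9.78 in L2-fKO spleens 1 to 3 and at 84.4 in L2-fKO spleen 4. Its log2 fold change was -0.92 (SE 0.64, adjusted p = 0.371, edgeR) with all libraries and -2.17 (SE 0.40, adjusted p = 0.00802) without L2-fKO spleen 4. *Cd160*, a receptor for Tnfrsf14 on NK and T cells, was at 162, 96.0, 85.5 and 93.0 in wild-type spleens and at 113, 85.3, 59.8 and 204 in L2-fKO spleens. Its log2 fold change of 0.08 turned to -0.34 without L2-fKO spleen 4, and neither was called.

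Cytokine receptor chains differed from each other. *Il18rap*, a chain of the receptor for interleukin-18, was at 401, 229, 482 and 265 in wild-type spleens and at 137, 171, 78.2 and 318 in L2-fKO spleens. It was not called with all libraries (log2 fold change of -0.96, adjusted p = 0.141, edgeR) and was called lower without L2-fKO spleen 4 (log2 fold change of -1.42, adjusted p = 0.0209). *Il2rb*, the chain shared by the receptors for interleukin-2 and interleukin-15, was at 502 to 1071 in wild-type spleens, at 544 to 658 in L2-fKO spleens 1 to 3 and at 1611 in L2-fKO spleen 4. Its log2 fold change was 0.19 with all libraries and -0.33 without L2-fKO spleen 4, and it was not called under either.

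*Eomes*, the T-box factor of NK cells and memory CD8 T cells, was at 255, 178, 70.6 and 164 in wild-type spleens and at 100, 94.2, 60.8 and 246 in L2-fKO spleens, which overlapped (log2 fold change of -0.41, adjusted p = 0.604, edgeR). Leaving out L2-fKO spleen 4 gave -0.97 (SE 0.39, adjusted p = 0.119, edgeR). *Tyrobp* was at 3554 to 4194 in wild-type spleens, at 2394 to 2955 in L2-fKO spleens 1 to 3 and at 4163 in L2-fKO spleen 4. Without the latter its adjusted p was 0.0142 (edgeR) at a log2 fold change of -0.49, under the limit on size. The effector genes *Fasl*, a death ligand, and *Ifng*, the cytokine interferon gamma, were low, with at most 25 and 33 counts in a library. *Fasl* had a log2 fold change of -0.24, and of -0.20 without L2-fKO spleen 4, and *Ifng* of 0.14, and the groups overlapped for both. *Ifng* turned to -0.77 without L2-fKO spleen 4 (adjusted p = 0.231, edgeR).

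**Figure D4:**
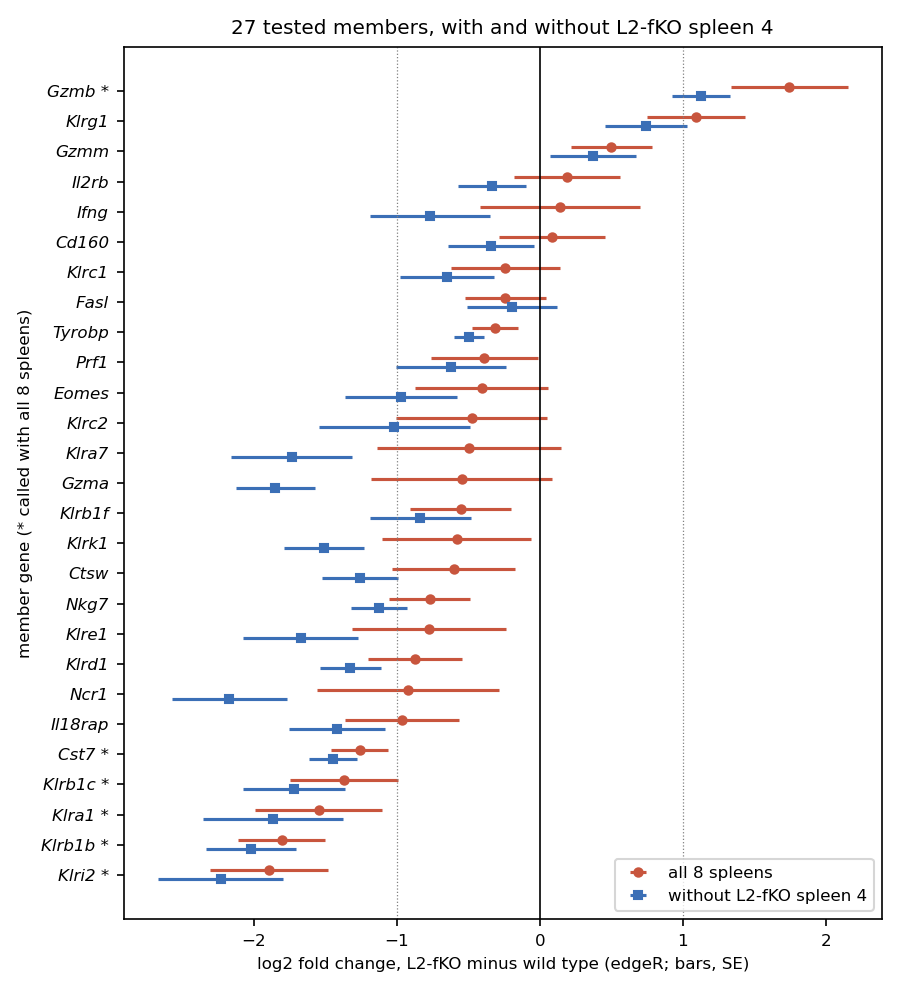
The log2 fold change with its SE (edgeR) is plotted for the 27 tested members with all 8 spleens (circles) and without L2-fKO spleen 4 (squares); an asterisk marks the members called with all 8, and dotted lines lie at -1 and 1. The squares lie left of the circles for all but *Fasl*, and the gap is largest for *Gzma*, *Ncr1* and *Klra7*. L2-fKO spleen 4 was the highest L2-fKO library for 29 of the 33 members, so this shift follows from leaving it out.

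In whole spleen, fewer NK cells and less RNA per NK cell cannot be told apart. Of the 6 NK cell markers, all of them members (*Ncr1*, *Klrb1c*, *Klrk1*, *Eomes*, *Gzma* and *Prf1*), the summed level was 1463, 986, 618 and 833 in wild-type spleens, 361, 373 and 326 in L2-fKO spleens 1 to 3 and 1477 in L2-fKO spleen 4. Summed markers of several other cell types were also highest in that library among the L2-fKO spleens. The 10 T cell markers, with *Cd3e* and *Cd8a* among them, summed to 3907 to 11250 in wild-type spleens, 4928 to 7903 in L2-fKO spleens 1 to 3 and 11282 in L2-fKO spleen 4, and none was called. The 8 macrophage and monocyte markers summed to 37125 to 61885, 55446 to 59770 and 99109 in the same order. The 8 dendritic cell markers summed to 4728 to 7377, 4177 to 4909 and 9245, and the 4 markers of spleen stroma to 5336 to 6421, 10988 to 11535 and 15931. The rise in that library was thus not limited to markers of lymphocytes, but it was not seen in every list. The 6 innate lymphoid cell markers summed to 2081 to 2584, 1816 to 2287 and 1745 in the same order, and 1 of them was at 0 in a library. The summed neutrophil, platelet and erythroid markers were not highest there among the L2-fKO spleens either. Wild-type spleen 1 was the highest of its group in the summed NK and T cell markers. No marker of the NK cell, T cell, macrophage and monocyte, dendritic cell and stroma lists was at 0 in any library. The part of these cell types in the members' results was not tested.

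Markers of gamma delta T cells, another lymphocyte that uses granzymes and NKG2 receptors, were split. *Trdc*, the delta chain constant gene, was at 124, 167, 120 and 165 in wild-type spleens and at 57.4, 38.8, 41.3 and 101 in L2-fKO spleens and was called lower (log2 fold change of -1.26, adjusted p = 0.0280, edgeR). *Tcrg-C1*, a gamma chain constant gene, was at 171, 81.8, 59.6 and 63.7 in wild-type spleens and at 625, 686, 621 and 582 in L2-fKO spleens and was called higher (log2 fold change of 2.74, adjusted p = 0.000678, edgeR). The groups did not overlap for either gene.

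Markers of other lineages were also called. All 8 neutrophil markers and all 6 megakaryocyte and platelet markers were called lower, with median log2 fold changes of -2.14 and -4.69. Of 8 macrophage and monocyte markers, *Ly6c2* and *Ccr2* were called lower. Of 8 dendritic cell markers *Cd209a* was called lower, of 4 markers of spleen stroma *Pdgfra* and *Pdgfrb* were called higher, and none of the 6 erythroid or the 5 tested innate lymphoid cell markers was called. The summed erythroid markers were 378662 to 454196 in wild-type spleens, 569437 to 758400 in L2-fKO spleens 1 to 3 and 374975 in L2-fKO spleen 4. L2-fKO spleens 1 to 3, in which most members were low, thus lay above every wild-type spleen, and L2-fKO spleen 4 lay just under them all. The part of erythroid RNA in the members' results was not tested.

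Genes that serve the members were read from 7 further lists. Of 16 NK and cytotoxic transcription factors, such as *Tbx21* and *Nfil3*, none was called, with a median log2 fold change of -0.11. Of 17 cytokines and receptors that act on NK cells 16 were tested and none was called with all libraries (median 0.05), and *Il12a* was called lower without L2-fKO spleen 4. Of 19 tested ligands of NK receptors none was called (median 0.19).

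Of 21 tested adaptors and other receptors, *Cd226* and *Lat* were called lower. *Cd226* (DNAM-1), an adhesion receptor of NK cells, T cells and platelets, was at 487 to 580 in wild-type spleens and at 81.4, 83.1, 47.8 and 152 in L2-fKO spleens (log2 fold change of -2.53, SE 0.30, adjusted p = 0.000752, edgeR). *Lat*, an adaptor of T cells, NK cells and platelets, had a log2 fold change of -1.10 (adjusted p = 0.0390, edgeR). *Hcst* (DAP10), the adaptor of NKG2D, was at 248 to 392 in wild-type spleens and at 153 to 238 in L2-fKO spleens, with a log2 fold change of -0.87 (adjusted p = 0.0207, edgeR) that was under the limit on size, and it was called without L2-fKO spleen 4. The 6 platelet markers summed to 21276 to 43625 in wild-type and 1120 to 1371 in L2-fKO spleens, and their part in the *Cd226* and *Lat* results was not tested.

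Of 14 genes of granule biogenesis and release, *Rab27a*, a GTPase that docks secretory granules, was called lower (log2 fold change of -1.10, adjusted p = 0.0259, edgeR), and *Serpinb9b*, a serpin of the granzyme B inhibitor family, was called higher (log2 fold change of 1.59, adjusted p = 0.0150, edgeR). *Serpinb9b* was at 13.1 to 28.3 in wild-type spleens and at 65.8, 68.7, 61.9 and 30.7 in L2-fKO spleens, so that L2-fKO spleen 4, the highest in *Gzmb*, was the lowest of its group here. Of 17 tested effector and homing genes, *S1pr5* and *Itgam* were called lower. *S1pr5*, the receptor by which NK cells leave the marrow, was at 41.5, 33.3, 46.7 and 28.3 in wild-type spleens and at 8.35, 13.3, 11.9 and 18.8 in L2-fKO spleens (log2 fold change of -1.50, SE 0.30, adjusted p = 0.0115, edgeR). *Itgam* (CD11b), on mature NK cells and on myeloid cells, had a log2 fold change of -2.28 (adjusted p = 0.00344, edgeR). Of the 9 tested paralogs and neighbours of the members, *Clec1b* alone was called with all libraries (log2 fold change of -2.12), and *Klra5* and *Klra13-ps* were also called lower without L2-fKO spleen 4.

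The motif of ZFP36L2 used in the study, UAUUUAU, was searched on the sense strand of the longest 3′UTR annotated for a gene (GENCODE mouse release 21, GRCm38). It was found in 7 of the 33 members (21.2%), *Fasl*, *Ifng*, *Il18rap*, *Klrc1*, *Klrc2*, *Klri2* and *Ncr1*, against 29.5% of the 14227 tested genes with a 3′UTR. The median 3′UTR was 608 bases in the members and 1331 in the tested genes. *Ifng* held 4 copies, *Klrc1* and *Klrc2* 3 each and the other 4 members 1 each. The windows below show 1 copy of each with 11 bases on either side and the motif in capitals; they are shown because the motif is the one named for the protein that the L2-fKO mice lack.
Klri2, chr6:129731007-129731035, minus strand: agaauaacaaaUAUUUAUaccaauuuaac
Ncr1, chr7:4344973-4345001, plus strand: uuuucuaauuuUAUUUAUuuuauguugcc
Il18rap, chr1:40550968-40550996, plus strand: acuguuauuaaUAUUUAUgccuugcauau
Fasl, chr1:161780763-161780791, minus strand: aauacaacuagUAUUUAUgcucugaacau
Ifng, chr10:118445323-118445351, plus strand: aaaucuaaaccUAUUUAUuaauauuuaaa
Klrc1, chr6:129666947-129666975, minus strand: uaauauauuccUAUUUAUguaauuuuguu
Klrc2, chr6:129649451-129649479, minus strand: uaauauauuccUAUUUAUguaauuuuguu

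The windows of *Klrc1* and *Klrc2* are identical here and at copy 3, and at copy 2 they match in 28 of 29 bases. None of the 7 members was called higher. *Klri2* was called lower, and the other 6 were not called with all libraries. *Gzmb* and *Klrg1*, the members that were higher in every L2-fKO library, hold no such motif in their longest annotated 3′UTR.

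RefSeq promoter windows (GRCm38.p6), from 250 bases before to 50 after the annotated start, were at hand for 27 of the members. They were searched on both strands for TCACAC, a T-box core, TGTGGT, a RUNX core, and GGAAGT, an ETS core, after the factor families that act in these cells; the motifs do not overlap each other in the windows printed. With the first window of each gene, the RUNX core was found in 16 of the 27 members (59.3%) against 16.9% of 27025 genes, the ETS core in 9 (33.3%) against 24.1%, and the T-box core in 7 (25.9%) against 14.4%. A match is a description of letters and does not show that a factor binds. The windows of *Klrb1a* and *Klrb1c* share long stretches, the RUNX core included, and such related genes were each counted in these shares. Of the called members with a window, *Gzmb*, *Klrb1c*, *Klra1* and *Cst7* held the RUNX core and *Klrb1b* did not. Their windows are shown because *Gzmb* was called in the direction opposite to the other 4; each match on either strand is in capitals.
Gzmb promoter, chr14:56262285-56262584, minus strand: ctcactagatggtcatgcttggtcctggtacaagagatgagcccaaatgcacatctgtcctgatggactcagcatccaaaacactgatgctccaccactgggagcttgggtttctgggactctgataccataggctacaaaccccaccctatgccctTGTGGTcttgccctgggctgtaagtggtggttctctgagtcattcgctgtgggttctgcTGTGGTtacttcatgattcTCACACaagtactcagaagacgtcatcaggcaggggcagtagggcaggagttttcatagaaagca
Klrb1c promoter, chr6:128788592-128788891, minus strand: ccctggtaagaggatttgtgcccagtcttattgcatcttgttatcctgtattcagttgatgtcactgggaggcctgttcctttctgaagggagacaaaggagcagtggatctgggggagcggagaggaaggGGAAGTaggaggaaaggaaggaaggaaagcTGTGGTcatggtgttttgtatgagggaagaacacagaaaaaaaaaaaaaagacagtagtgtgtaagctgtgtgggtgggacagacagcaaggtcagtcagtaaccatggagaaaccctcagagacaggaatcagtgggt
Klra1 promoter, chr6:130386825-130387124, minus strand: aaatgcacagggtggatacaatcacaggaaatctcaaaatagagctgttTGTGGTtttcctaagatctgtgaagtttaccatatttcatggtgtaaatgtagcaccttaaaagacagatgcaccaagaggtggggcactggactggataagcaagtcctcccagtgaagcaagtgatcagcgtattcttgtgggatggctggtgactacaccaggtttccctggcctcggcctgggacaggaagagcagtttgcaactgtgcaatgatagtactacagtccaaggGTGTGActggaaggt
Cst7 promoter, chr2:150570165-150570464, plus strand: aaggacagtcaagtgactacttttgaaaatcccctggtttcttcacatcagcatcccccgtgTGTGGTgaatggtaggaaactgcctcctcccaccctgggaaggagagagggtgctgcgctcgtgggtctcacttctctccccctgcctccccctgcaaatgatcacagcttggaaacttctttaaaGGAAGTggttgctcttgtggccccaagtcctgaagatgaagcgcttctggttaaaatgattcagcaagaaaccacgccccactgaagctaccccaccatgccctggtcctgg
Klrb1b promoter, chr6:128826266-128826565, minus strand: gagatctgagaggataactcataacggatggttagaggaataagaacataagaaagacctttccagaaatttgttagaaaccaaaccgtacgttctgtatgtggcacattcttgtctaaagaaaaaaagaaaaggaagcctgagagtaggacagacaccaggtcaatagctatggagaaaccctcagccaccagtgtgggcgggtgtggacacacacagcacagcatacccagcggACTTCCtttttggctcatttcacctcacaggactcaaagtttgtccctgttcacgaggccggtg

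*Gzmb* held 2 RUNX cores and 1 T-box core. *Klra1*, called lower, held both cores as well.

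In the ovary, 7 of the 33 members were in the deposited table (*Gzmm*, *Klrb1c*, *Ctsw*, *Il2rb*, *Il18rap*, *Cd160* and *Tyrobp*), and the other 26 were not analysed there. All 7 were tested with limma on log2(normalized count + 1) and none was called, against 0.957% of the 18504 genes tested; 3 had an unadjusted p below 0.05. edgeR and DESeq2 on the recovered reads, which covered 6 of them (*Klrb1c* was under their filter on low reads), called none of the 6. *Zfp36l2* was at 4745 to 4906 in wild-type and at 758 to 1011 in L2-fKO ovaries (log2 fold change of -2.40, limma). With 3 against 3 animals no exact permutation p can fall below 0.1.

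*Cd160* was at 159, 105 and 141 in wild-type ovaries and at 77.8, 86.3 and 80.8 in L2-fKO ovaries, with a log2 fold change of -0.70 (SE 0.21, adjusted p = 0.153, limma). Every L2-fKO ovary was below every wild-type ovary. *Tyrobp* was at 136, 105 and 106 in wild-type ovaries and at 180, 189 and 144 in L2-fKO ovaries (log2 fold change of 0.56, adjusted p = 0.208, limma). *Ctsw* was at 28.0, 41.8 and 16.5 against 49.2, 66.8 and 47.8 (log2 fold change of 0.98, adjusted p = 0.241, limma). *Il18rap* was at 10.9, 20.1 and 13.8 against 22.4, 37.0 and 21.6 (log2 fold change of 0.81, adjusted p = 0.311, limma). These 3 were higher in every L2-fKO ovary than in every wild-type ovary, and none passed the test. The share of all ovary genes without overlap was not taken. The counts without overlap here and for the markers below thus have no background to be read against. *Tyrobp* is a gene of myeloid cells as well. Of the 7 macrophage and monocyte markers tested in the ovary, 5 (*Csf1r*, *Adgre1*, *Cd68*, *C1qa* and *C1qb*) were higher in every L2-fKO ovary. Their log2 fold changes were 0.50 to 1.01. *Vcam1* (0.094) and *Ccr2* (-0.38) had overlapping groups, and none of the 7 was called by limma. DESeq2 called 1 of them, *C1qa*. The 7 summed to 1869 to 2412 in wild-type ovaries and to 2817 to 3843 in L2-fKO ovaries, none was at 0, and their part in the *Tyrobp* result was not tested. *Klrb1c*, called lower in the spleen, had 4 to 27 recovered reads in an ovary and overlapping groups.

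Of the other lists, *Cd7*, a receptor of NK and T cells, was called lower in L2-fKO ovaries (log2 fold change of -2.32, adjusted p = 0.00738, limma), *Tnfsf10*, the death ligand TRAIL, was called higher (log2 fold change of 1.04, adjusted p = 0.0120, limma), and the T cell and myeloid gene *Cd4* was called higher (log2 fold change of 2.12, adjusted p = 0.00933, limma). *Cd7* was at 397 to 444 in wild-type ovaries and at 98.4, 56.5 and 103 in L2-fKO ovaries. *Cd4* was at 46.8 to 60.8 against 190, 315 and 229. All 3 were without overlap between the groups.

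**Figure D5:**
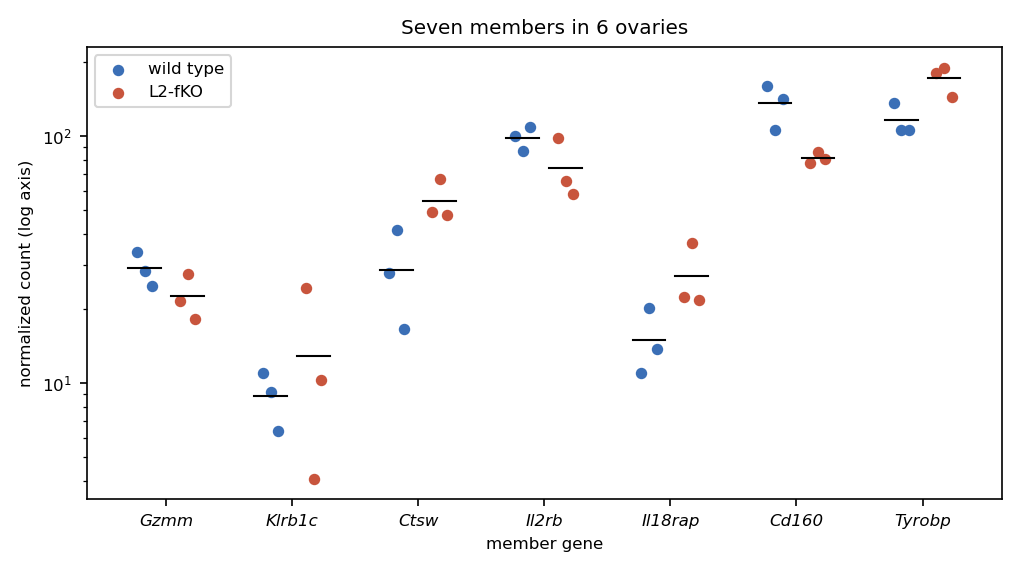
Each point is the normalized count of 1 ovary, on a log axis, for the 7 members in the ovary table, wild type in blue and L2-fKO in red, with bars at the means. The groups do not overlap for *Ctsw*, *Il18rap*, *Cd160* and *Tyrobp*, and no member was called.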

How the data were processed

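The members and all gene lists were chosen with earlier results of these data known. Per the labels and the study's methods, the authors trimmed reads (Trimmomatic 0.36), mapped them to GRCm38 (STAR 2.5.2b), with featureCounts giving strand-specific counts of uniquely mapped exon reads (Subread 1.5.2). The authors deposited raw counts per gene for the spleen. For the ovary the deposited values are signal, counts divided by a size factor, in the authors' comparison table; all of them were whole multiples of a step, within 0.001 reads, which gave recovered reads. The authors' fold changes and p-values from DESeq2 were not used.

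Spleen counts were fitted on all genes with edgeR 4.0.16 (quasi-likelihood, TMM, at least 10 counts in at least 4 libraries), and ovary log2(value + 1) with limma 3.58.1 (at least 10 in at least 3 libraries). p-values were adjusted by Benjamini-Hochberg over all genes tested. R 4.3.3, DESeq2 1.42.0 and Python 3.11.15 were used, and the fits were tested on simulated data. Counts came from 39138010 to 45167464 per spleen library; a gene with few counts is known with little precision. All 33 members are named; of the other lists the called genes, at most 8 a list, and the lead genes of marker lists. Of 222 other symbols sought, 6 had no match. Lengths, coordinates and 3′UTRs are from GENCODE mouse release 21. Alternatives were the test, scaling, filters, sex, the label number as a block, left-out libraries, pseudocounts of 0.5 and 5, and exon length. The result of 1 marker list is not reported here.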

Additional observations from a re-analysis of the deposited data

Results flagged for a closer look

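A sample was flagged where its distance to the nearest of its group took up most of the range of the group by Dixon's ratio. This was checked in 61 groups of 4 spleens with at least 10 counts of a member in a library, of which chance flags about 1 in 20, and 16 were flagged. The highest sample was flagged in each of the 16, L2-fKO spleen 4 in 11 and wild-type spleen 1 in 5.

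In L2-fKO spleen 4 the flagged normalized counts were 686 for *Gzma* (75.2 to 116 in the other 3), 390 for *Gzmb* (112 to 133), 11.1 for *Gzmk* (2.21 to 3.26), 41.8 for *Klre1* (9.39 to 9.97), 71.6 for *Klrg1* (32.1 to 36.5) and 294 for *Klrk1* (59.8 to 71.0). They were 63.1 for *Klra7* (6.65 to 13.04), 84.4 for *Ncr1* (9.78 to 16.7), 28.1 for *Ifng* (4.43 to 8.35), 323 for *Ctsw* (91.2 to 105) and 1611 for *Il2rb* (544 to 658). In wild-type spleen 1 they were 198 for *Klrb1c* (82.5 to 96.0 in the other 3), 282 for *Klrk1* (143 to 163), 16.98 for *Klra3* (5.05 to 7.08), 56.6 for *Klra7* (23.2 to 28.3) and 162 for *Cd160* (85.5 to 96.0). The flags of 1 library share that library and are not independent of each other.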

How the results depend on the processing

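Of the members, 1 was called higher and 5 lower in the spleen. The count lower was 3 with at least 10 counts in all 8 libraries, 2 in males only, 3 with sex as a covariate, 9 with no filter on low counts and 14 without both wild-type spleen 1 and L2-fKO spleen 4, and 2 (without L2-fKO spleen 1) to 14 (without L2-fKO spleen 4) as single libraries were left out. The count higher was 2 by DESeq2, 0 in males only and with sex as a covariate, and 0 to 1 as single libraries were left out. The calls of *Cst7* and *Klrb1b* held in males only and with sex as a covariate. That of *Klri2* held only with the covariate, and those of *Klrb1c*, *Klra1* and *Gzmb* in neither. With the label number as a replicate block 14 members were called lower; L2-fKO spleen 4 has no partner of its number, so the block in effect leaves it out. The study matched its spleens in pairs for age, but no label ties a number to a pair. The numbers were not taken as pairs, since same-numbered spleens did not all deviate together (r from -0.15 to 0.18, and in the ovary 0.07 to 0.38). The highest r between a wild-type and an L2-fKO spleen was 0.45, for wild-type spleen 1 and L2-fKO spleen 4. Whether these 2 form a pair was not in the labels. Over all genes, adjusted p as the only limit gave 1166 higher and 1101 lower in the spleen and 227 and 65 in the ovary. In the ovary, where 135 genes were called higher and 42 lower, DESeq2 on recovered reads gave 286 and 121, the replicate block 81 lower, and left-out libraries 28 to 127 and 4 to 72; no alternative called a member. Cause was not tested beyond what each setting leaves out.

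Directions that turned were all of members not called. *Klrc2* was at 0.13 and *Klra7* at 0.11 (log2) in males only. *Ifng*, *Il2rb* and *Cd160* were at -0.63, -0.10 and -0.089 without both libraries and at -0.82, -0.33 and -0.44 with the replicate block, and *Ifng* and *Cd160* at -0.035 and -0.0049 with sex as a covariate. With single libraries left out the ranges were -0.62 to 0.028 for *Prf1*, -0.77 to 0.39 for *Ifng*, -0.33 to 0.42 for *Il2rb*, -0.34 to 0.34 for *Cd160* and, in the ovary, -0.35 to 0.80 for *Klrb1c*. Levels under DESeq2 size factors were 0.991 to 0.994 times the TMM levels, and by the longest transcript *Klrk1* moved from rank 18 to 9 in level per length. The 6 members under the filter rest on at most 35 counts a library.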
